A study of Mus musculus with 6 samples.

Results

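The purine signalling genes *P2ry1*, *P2ry14*, *P2rx7*, *Adora1*, *Adora2a*, *Adora2b*, *Entpd2*, *Nt5e* and *Adk* were read in scRNA-seq of amygdala cells sorted as astrocytes. They were chosen by name, as the purine receptors and adenosine-handling enzymes of interest, and are 9 of the 32285 genes in the matrices. The 6 samples were 3 gene expression libraries and 3 hashtag libraries, the latter carrying the oligonucleotide tags that mark which mouse a cell came from. By the labels all mice were wildtype C57BL/6N males, taken 90 min after the start of the behaviour, and the sort used the ACSA2 antibody against ATP1B2 together with antibodies to CD11b, CD45 and O1. Actinomycin D, triptolide and anisomycin, inhibitors of transcription and translation, were present during dissociation in all samples.

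The study had 4 behavioural groups of 4 mice each, 16 in all. Fear-conditioned mice (FC) received foot shocks in a chamber, and their controls (NoFC) were not shocked. Fear-recall mice (FR) were conditioned and returned to the chamber for recall on the following day. Their controls (NoFR) were conditioned and kept in the home cage on that day, without recall. NoFR mice thus had no chamber session on the day of collection, whereas the other groups did. Every group had 2 mice in library 1. In library 2 there were 2 FC mice with 1 each of NoFC and FR, and in library 3 there were 2 NoFR mice with 1 each of NoFC and FR. The sample labels call all cells astrocytes, and the mouse and group of a cell came from the hashtags listed in the deposited table.

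ATP and other nucleotides released by cells act on P2X receptors, which are ATP-gated cation channels, and on P2Y receptors, which couple to G proteins. Enzymes on the cell surface degrade ATP stepwise to adenosine, which acts on 4 G-protein-coupled adenosine receptors. Adenosine is then taken up through nucleoside transporters and returned to AMP by adenosine kinase, the product of *Adk*, an enzyme known in the adult brain for its presence in astrocytes. Pericytes are the mural cells of capillaries, wrapped around the endothelium beneath the astrocyte endfeet.

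The 3 libraries held 13546 barcodes with 31700569 to 42350059 UMIs per library. By the 4 genes of the class rule, 8757 barcodes were astrocytes (at least 20 UMIs of *Slc1a2* and *Slc1a3* and at most 3 of *Vtn* and *Rgs5*) and 2260 were pericytes (at least 10 UMIs of *Vtn* and *Rgs5* and at most 5 of *Slc1a2* and *Slc1a3*). The remaining 2529 barcodes had a median of 761 UMIs and entered no comparison. Median depth was 9891 UMIs in astrocytes and 5006 in pericytes, and pairs of libraries shared between 3 and 8 cell barcodes. Markers that the rule did not use followed the class names: all 10 astrocyte markers were higher in astrocytes and all 9 pericyte markers in pericytes. Levels are given as CPM, the UMIs of a gene scaled to the UMI total of its class in a library. The astrocyte list summed to between 8496 and 8596 CPM in astrocytes and between 740 and 807 in pericytes, of which *Atp1b2*, the target of the sorting antibody, made up 676 CPM. The pericyte list summed to between 13047 and 13201 CPM in pericytes and between 173 and 193 in astrocytes. Markers of smooth muscle summed to between 228 and 290 CPM in pericytes, those of fibroblasts to between 225 and 258, and those of endothelium to between 134 and 144. Most of the fibroblast sum was *Col1a2* (208 CPM, against 1.11 for *Col1a1*). Most of the endothelial sum was *Flt1* (131 CPM, against 5.22 for *Cldn5*).

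Promoters are shown for 3 of the 9 genes that differ in class, *P2ry14*, higher in pericytes, and *Entpd2* and *P2rx7*, higher in astrocytes. Each is the first start site listed by RefSeq on GRCm38.p6, from 250 bases before to 50 after the start, 5′ to 3′ on the gene's strand. Capitals mark GGGCGG or its reverse complement CCGCCC, the GC box, searched on both strands without overlap with another motif. They lie at chr3:59153443-59153742 (minus strand), chr2:25395624-25395923 (plus strand) and chr5:122643677-122643976 (plus strand).
P2ry14: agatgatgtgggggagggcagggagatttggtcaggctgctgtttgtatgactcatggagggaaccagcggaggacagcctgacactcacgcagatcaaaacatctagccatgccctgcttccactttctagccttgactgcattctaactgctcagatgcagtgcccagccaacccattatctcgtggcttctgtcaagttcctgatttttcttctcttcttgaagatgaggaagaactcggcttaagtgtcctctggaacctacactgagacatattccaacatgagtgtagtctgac
Entpd2: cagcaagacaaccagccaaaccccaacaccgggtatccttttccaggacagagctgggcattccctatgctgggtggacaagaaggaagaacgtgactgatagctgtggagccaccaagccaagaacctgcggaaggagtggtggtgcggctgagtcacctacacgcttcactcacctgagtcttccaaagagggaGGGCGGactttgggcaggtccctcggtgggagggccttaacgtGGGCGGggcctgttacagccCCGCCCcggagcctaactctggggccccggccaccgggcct
P2rx7: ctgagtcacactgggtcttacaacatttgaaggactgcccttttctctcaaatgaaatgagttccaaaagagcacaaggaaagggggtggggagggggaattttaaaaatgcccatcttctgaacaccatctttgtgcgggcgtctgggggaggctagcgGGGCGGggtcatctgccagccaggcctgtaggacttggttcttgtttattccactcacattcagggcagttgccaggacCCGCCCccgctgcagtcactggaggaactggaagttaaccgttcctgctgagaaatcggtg

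The *P2ry14* sequence held 0 GC boxes and 4 CG dinucleotides. The *Entpd2* sequence held 3 GC boxes and 13 CG dinucleotides, and that of *P2rx7* 2 and 8. RefSeq listed 14 promoters for 8 of the 9 genes, and a GC box was found in 8 of the 14 and in at least 1 promoter of 7 genes. None of the 4 *P2ry14* promoters held a GC box, and they held between 1 and 4 CG dinucleotides. Of all 32851 promoters of this length in the table, 35.7% held a GC box, the median held 7 CG dinucleotides and 38% held at most 4.

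Of the receptors for nucleotides, *P2ry14*, the receptor for UDP-glucose and related UDP-sugars, was higher in pericytes than in astrocytes. Its level was 1023, 1068 and 1020 CPM in the pericytes of libraries 1, 2 and 3 (1037 ± 26.6 CPM; SD, n = 3) and 32.3, 28.9 and 30.7 CPM in their astrocytes (30.6 ± 1.69 CPM; SD, n = 3). Every pericyte sum lay above every astrocyte sum. The share of all genes whose sums do not overlap between the classes was not counted, here or for the genes below. The log2 fold change of astrocytes over pericytes was −4.87 (standard error, SE, 0.057; adjusted p = 3.51e-31 by the quasi-likelihood test of edgeR). With sums per mouse in place of library it was −4.88 (SE 0.221). A *P2ry14* UMI was found in 95.7% of pericytes (95% Wilson interval 94.7 to 96.4%) and in 21.8% of astrocytes (20.9 to 22.7%). Pericytes held a median of 5 *P2ry14* UMIs per cell and a maximum of 25, and 12.2% of them held at least 10. Astrocytes held at most 7, and 20 of the 8757 held 5 or more. With every cell thinned to 2000 UMIs, which kept 8476 astrocytes and 2213 pericytes, the shares were 83 ± 1.12% of pericytes and 5.73 ± 0.367% of astrocytes (SD, n = 3). The gene (ENSMUSG00000036381) lies at chr3:59113855-59153618 on the minus strand of GRCm38 (GENCODE vM21) inside the plus-strand gene *Med12l*, read at 99.5 CPM in astrocytes and 62.2 CPM in pericytes. The sources used here do not state strand in the counting, so reads of this pair cannot be told apart with certainty.

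*P2rx7*, an ATP-gated channel that opens at high ATP, was higher in astrocytes than in pericytes, and in astrocytes lay near *P2ry14* (30.6 CPM). It was read at 25.4, 29.3 and 28.3 CPM in astrocytes (27.7 ± 2.01 CPM; SD, n = 3) and at 0.226, 1.13 and 1.07 CPM in pericytes, which held 9 UMIs in all. The log2 fold change was 5.36 (SE 0.23, edgeR adjusted p = 5.99e-18). A UMI was seen in 21.6% of astrocytes and 0.354% of pericytes, and after thinning in 5.34 ± 0.352% and 0.167 ± 0.104% (SD, n = 3). The astrocyte marker *Aqp4* was seen in 2.57% of pericytes, but stood at 568 CPM in astrocytes, so these shares are not set at like levels. Against the astrocyte level, *P2rx7* in pericytes was at 2.81% and *Aqp4* at 0.934%. With 9 UMIs the pericyte share of *P2rx7* is not read as expression by share alone. The part of carried-over RNA in it was not tested. The gene (ENSMUSG00000029468) lies at chr5:122643911-122691432 on the plus strand.

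*P2ry1*, a receptor for ADP, was near the limit of detection in both classes. It was read at 0.631, 0.442 and 0.539 CPM in astrocytes and at 0, 1.13 and 0.805 CPM in pericytes. These levels rest on 50 UMIs in 8757 astrocytes and 7 in 2260 pericytes, with a UMI in 0.514% and 0.177% of the cells. The ratio of astrocytes to pericytes was 0.913, with an exact 95% counting interval of 0.412 to 2.39 that holds equal levels. The gene (ENSMUSG00000027765, chr3:61002795-61008982, plus strand) did not pass the filter on low counts in the comparison of the classes.

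**Figure D1:**
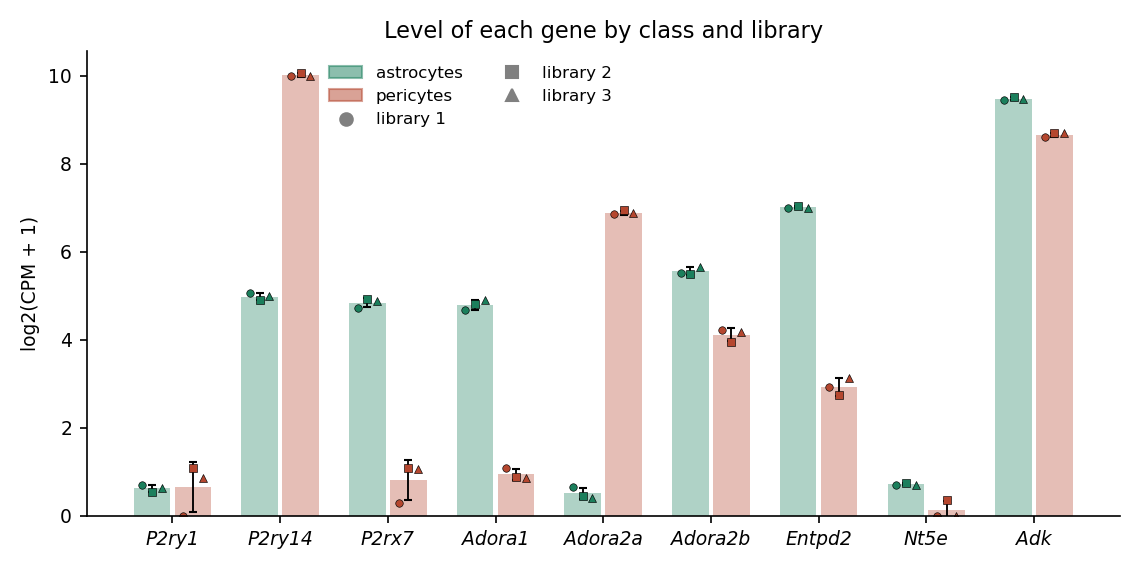
Level of each of the 9 genes in astrocytes and pericytes, as log2(CPM + 1), with bars at the mean, error bars of 1 SD over 3 libraries and a point for each library. *P2ry14* and *Adora2a* stood higher in pericytes (1037 and 118 CPM against 30.6 and 0.423 CPM in astrocytes), *Adk* was high in both classes (714 CPM in astrocytes and 404 CPM in pericytes), and *P2ry1* and *Nt5e* stood near 0 in both.

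The adenosine receptors divided between the classes. *Adora2a*, which encodes a Gs-coupled receptor that raises cAMP and dilates vessels, was read at 115, 122 and 116 CPM in pericytes (118 ± 3.98 CPM; SD, n = 3). Astrocytes held 40 *Adora2a* UMIs in all, at 0.576, 0.368 and 0.324 CPM in the libraries. The log2 fold change of astrocytes over pericytes was −7.84 (SE 0.13, edgeR adjusted p = 4.73e-28). It was −6.11 with sums per mouse in place of library and −5.65 when mouse FC 1 was also left out. In these sums astrocytes held 1 *Adora2a* UMI each in FC, NoFR and FR mice and 0 in NoFC mice. The UMI of the FC mice was from FC 1. Both values thus rest on counts near the floor and are not read as a smaller difference. A UMI was found in 43.9% of pericytes (Wilson interval 41.9 to 45.9%) and 0.434% of astrocytes (0.316 to 0.595%). Of astrocytes, 0.514% held a UMI of the pericyte marker *Kcnj8*, which stood at 1049 CPM in pericytes. *Kcnj8* stood above *Adora2a* in pericytes, so these shares are not set at like levels. Against the pericyte level, *Adora2a* in astrocytes was at 0.372% and *Kcnj8* at 0.0469%. The astrocyte share is not read as expression by share alone, and the part of carried-over RNA in it was not tested. After thinning the shares were 21.1 ± 0.781% of pericytes and 0.0847 ± 0.0153% of astrocytes (SD, n = 3). The gene (ENSMUSG00000020178) lies at chr10:75316877-75334784 on the plus strand.

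*Adora1*, which encodes a Gi-coupled receptor that lowers cAMP, had the opposite direction. Astrocytes held 24.6, 26.9 and 28.9 CPM (26.8 ± 2.14 CPM; SD, n = 3) and pericytes 1.13, 0.848 and 0.805 CPM, from 11 UMIs. The log2 fold change was 5.02 (SE 0.22, edgeR adjusted p = 4.71e-18), with a UMI in 21.6% of astrocytes and 0.487% of pericytes. The gene (ENSMUSG00000042429, chr1:134199223-134235431, minus strand) overlaps the plus-strand gene *Mybph*, read at 0.284 CPM in astrocytes and 7.7 CPM in pericytes.

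*Adora2b*, which encodes a Gs-coupled receptor of low affinity for adenosine, was read in both classes. Its level was 44.9, 44 and 49.6 CPM in astrocytes (46.2 ± 2.98 CPM; SD, n = 3) and 17.7, 14.4 and 17.2 CPM in pericytes (16.4 ± 1.75 CPM; SD, n = 3). The groups of sums did not overlap, and the log2 fold change was 1.69 (SE 0.097, edgeR adjusted p = 3.80e-15). A UMI was seen in 34.1% of astrocytes and 7.74% of pericytes (Wilson interval 6.71 to 8.92%), and after thinning in 8.94 ± 0.423% and 3.25 ± 0.486% (SD, n = 3). The gene (ENSMUSG00000018500) lies at chr11:62248984-62266453 on the plus strand. Of the adenosine receptors, *Adora2a* and *Adora2b* were thus read in pericytes, and *Adora1* and *Adora2b* in astrocytes.

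**Figure D2:**
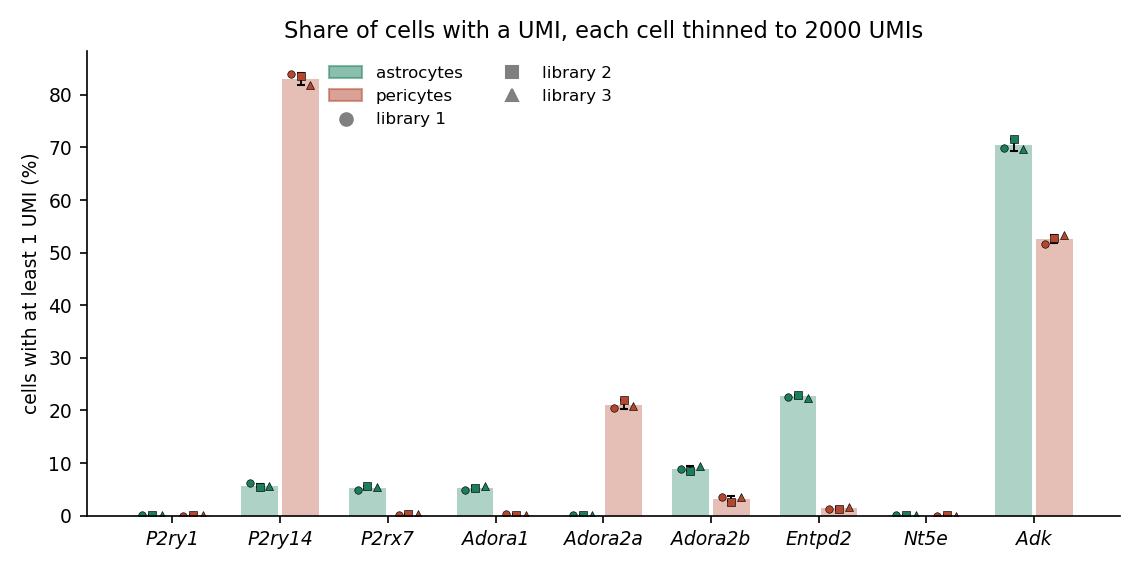
Share of cells with at least 1 UMI of each gene after thinning every cell to 2000 UMIs, in percent, for astrocytes and pericytes, with bars at the mean, error bars of 1 SD over 3 libraries and a point for each library. *P2ry14* was found in 83% of pericytes and 5.73% of astrocytes, *Adora2a* in 21.1% and 0.0847%, and *Entpd2* in 22.7% of astrocytes and 1.37% of pericytes.

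Of the enzymes, *Entpd2*, an ectonucleotidase that hydrolyses ATP to ADP, was higher in astrocytes than in pericytes. It was read at 127, 130 and 127 CPM in astrocytes (128 ± 1.69 CPM; SD, n = 3) and at 6.56, 5.65 and 7.78 CPM in pericytes (6.67 ± 1.07 CPM; SD, n = 3), from 78 UMIs. The log2 fold change was 4.47 (SE 0.11, edgeR adjusted p = 2.60e-24). A UMI was seen in 63.2% of astrocytes (Wilson interval 62.2 to 64.2%) and 3.41% of pericytes (2.73 to 4.24%), the latter between the shares of the astrocyte markers *Aqp4* (2.57%) and *Gja1* (7.04%) in pericytes. Both markers stood above *Entpd2* in astrocytes, at 568 and 1575 CPM, so these shares are not set at like levels. The gene (ENSMUSG00000015085, chr2:25395874-25401321, plus strand) overlaps *Npdc1* on the same strand, read at 41.9 and 40.1 CPM in astrocytes and pericytes.

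*Nt5e* encodes CD73, the ectoenzyme that converts AMP to adenosine. Astrocytes held 58 *Nt5e* UMIs, at 0.635 ± 0.0262 CPM (SD, n = 3), and pericytes held 1. A UMI was seen in 0.582% of astrocytes and 0.0442% of pericytes. The ratio of astrocytes to pericytes was 7.41, with an exact 95% counting interval of 1.28 to 298. The gene (ENSMUSG00000032420, chr9:88327197-88372092, plus strand) did not pass the filter on low counts.

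*Adk* was abundant in both classes and higher in astrocytes. Astrocytes held 699, 737 and 707 CPM (714 ± 19.9 CPM; SD, n = 3) and pericytes 389, 412 and 412 CPM (404 ± 13.1 CPM; SD, n = 3). The sums did not overlap, with a log2 fold change of 1.03 (SE 0.051, edgeR adjusted p = 1.25e-16). A UMI was seen in 95.1% of astrocytes and 79.2% of pericytes, at a median of 6 and 2 UMIs per cell. After thinning the shares were 70.4 ± 1.06% and 52.6 ± 0.788% (SD, n = 3). The gene (ENSMUSG00000039197) spans chr14:21052574-21448569 on the plus strand.

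In all, 7 of the 9 genes passed the filter on low counts, and all 7 were called, 5 higher in astrocytes and 2 higher in pericytes. Calls were common between the classes: of 15361 genes tested, 42.8% were higher in astrocytes and 36.9% higher in pericytes, 6569 and 5663 genes. Scaling by plain library totals in place of TMM changed that split to 5540 and 6721 genes and moved the median log2 fold change of all genes from 0.10 to −0.11, without changing the direction or the call of any of the 7 genes. Without the filter, *P2ry1* had a log2 fold change of 0.13 (adjusted p = 0.889 from edgeR's test) and *Nt5e* one of 3.05 (adjusted p = 0.0274).

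Each class carried some RNA of the other's markers, and the levels of the 9 genes were set beside them. In astrocytes the pericyte markers *Kcnj8*, *Abcc9*, *Higd1b*, *Ndufa4l2* and *Anpep* stood at between 0.0398 and 0.0598% of their pericyte level. *Cspg4* stood at 0.376%, *Atp13a5* at 1.48%, *Notch3* at 3.85% and *Pdgfrb* at 4.13%. *P2ry14* in astrocytes stood at 2.97% of its pericyte level (exact counting interval 2.85 to 3.1%), and at 3.16, 2.71 and 3.01% in the 3 libraries. *Adora2a* in astrocytes stood at 0.372% (0.265 to 0.509%), above the 5 lowest markers and near *Cspg4*. The *P2ry14* level of astrocytes was thus some way above that of 5 pericyte markers and *Adora2a*, and within the range of *Atp13a5*, *Notch3* and *Pdgfrb*. By the rule genes of pericytes it was 31.1 CPM in the 8006 astrocytes with 0 UMIs of *Vtn* and *Rgs5*, 27.6 CPM in the 689 with 1, and 33.6 CPM in the 62 with 2 or 3. The last value rests on 24 UMIs and was 0, 111 and 43.3 CPM in libraries 1, 2 and 3, against 32.8, 29.1 and 30.8 CPM with 0 UMIs, so that no direction can be read from it.

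In pericytes, the astrocyte markers stood at between 0 (*Gfap*) and 2.13% (*Mlc1*) of their astrocyte level, apart from *Atp1b2* at 83.1%. *Adora2b* stood at 35.9% (30.9 to 41.4%) and *Adk* at 56.6% (54.9 to 58.3%), both far above that range. *Entpd2* stood at 5.22% (4.12 to 6.52%), *Adora1* at 3.54% (1.76 to 6.35%) and *P2rx7* at 2.81% (1.28 to 5.33%), the last 2 with intervals that reach into it. In pericytes with 0, with 1 or 2, and with 3 to 5 UMIs of *Slc1a2* and *Slc1a3*, 975, 1078 and 207 cells, *Adora2b* was 18.1, 15.1 and 16.7 CPM. *Adk* was 380, 414 and 449 CPM in the same cells and *Entpd2* 5.91, 7.8 and 4.4 CPM. For *Adk* the 3 bins were 342, 418 and 452 CPM in library 1 and 385, 426 and 483 CPM in library 2, and 428, 401 and 414 CPM in library 3, so that the level rose over the bins in libraries 1 and 2 and not in library 3. The last *Entpd2* bin rests on 5 UMIs. Of the genes higher in pericytes, *P2ry14* was 1093, 1010 and 917 CPM over the same bins, and *Adora2a* 117, 121 and 104 CPM. *P2ry14* fell over the bins in each library. It was 1105, 976 and 893 CPM in library 1, 1114, 1058 and 888 in library 2, and 1049, 1011 and 967 in library 3. The part of carried-over RNA in these values was not tested.

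**Figure D3:**
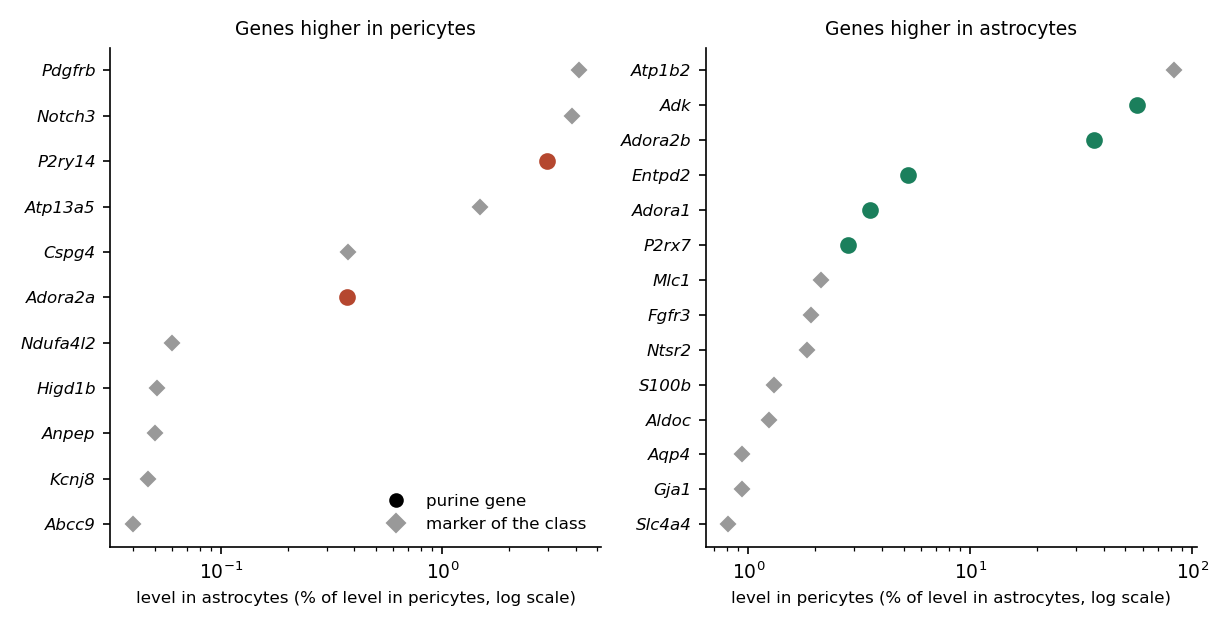
Level of each gene in the class where it is lower, as a percent of its level in the other class, on a log axis, for the purine genes (circles) and the fixed markers of both classes (diamonds, *Gfap* at 0 not drawn). *Adk* (56.6%) and *Adora2b* (35.9%) stood far above the markers other than *Atp1b2* (83.1%), and *P2ry14* (2.97%) stood between *Atp13a5* (1.48%) and *Pdgfrb* (4.13%).

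The 9 genes were then placed in a list of 52 genes of purine signalling, the 9 included. Of these 29 passed the filter, and 17 were higher in astrocytes, 8 higher in pericytes and 4 not called. Over all 15361 genes tested, 42.8% were higher in astrocytes and 36.9% higher in pericytes. No set test was run on the list or on its roles. The median log2 fold change of the 29, which include the 7 tested members, was 1.05, against 0.10 over all genes tested. The other 23 genes held at most 58 UMIs in astrocytes and at most 7 in pericytes. Apart from the 9 genes, the list held 43, of which 22 were tested, 12 higher in astrocytes and 6 in pericytes.

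Among receptors, 2 of 8 P2Y genes and 5 of 7 P2X genes were tested. *P2ry12*, an ADP receptor best known from microglia, was higher in astrocytes with a log2 fold change of 0.86 (SE 0.155), while microglial markers summed to between 29.3 and 30.5 CPM in astrocytes and between 25.2 and 32.5 CPM in pericytes. The P2X subunit *P2rx6* was higher in astrocytes, with 550 UMIs against 2 in pericytes, a ratio of 35.1 (exact counting interval 9.68 to 291). *P2rx1*, a P2X channel of smooth muscle and platelets, was higher in pericytes, with 205 UMIs against 4 in astrocytes and a log2 fold change of −8.22 (SE 0.38). Of the P2X genes called, *P2rx1* was thus higher in pericytes, and *P2rx6* and *P2rx7* in astrocytes.

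Among the 10 ectonucleotidases and ectophosphatases, 5 were tested, 3 higher in astrocytes and 2 in pericytes (42.8% and 36.9% over all genes tested). *Alpl*, the tissue-nonspecific alkaline phosphatase, which can also convert AMP to adenosine, held 2854 UMIs in astrocytes and 1 in pericytes, a ratio of 365 (exact counting interval 65.4 to 14408). *Entpd1*, or CD39, which hydrolyses ATP and ADP, had a log2 fold change of 5.26 (SE 0.216). *Enpp1*, which cleaves ATP to AMP and pyrophosphate, had −4.46 (SE 0.49), and *Enpp2*, whose product autotaxin acts mainly on lysophospholipids, −2.86 (SE 0.154).

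Of the 9 enzymes inside the cell, 7 were tested, 6 higher in astrocytes and 0 in pericytes. Over all genes tested, 42.8% were higher in astrocytes and 36.9% higher in pericytes. *Ampd3*, among the 6 and named after its values were seen, stood at 45.9 CPM in astrocytes and 47.1 CPM in pericytes. Its call depended on TMM scaling and was lost with plain library totals. *Nt5c1a*, a cytosolic nucleotidase that makes adenosine from AMP, held 260 UMIs in astrocytes and 0 in pericytes, at least 11.1-fold higher when pericytes are set to the limit of 3 UMIs over the class (0.257 CPM). *Ampd2*, an AMP deaminase, had a log2 fold change of 1.65 (SE 0.134), and *Pnp*, the purine nucleoside phosphorylase, 1.64 (SE 0.093).

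The equilibrative nucleoside transporters divided between the classes. *Slc29a1* was higher in pericytes, with a log2 fold change of −2.58 (SE 0.135). *Slc29a2*, at 1.99 (SE 0.233), and the lysosomal *Slc29a3*, at 1.97 (SE 0.134), were higher in astrocytes. Of the 7 genes of ATP release, *Lrrc8a*, a subunit of volume-regulated anion channels, was higher in astrocytes (1.34, SE 0.077). *Calhm2*, a member of a family of pore-forming proteins, was higher in pericytes (−2.75, SE 0.142), as was *Slc17a9*, the vesicular nucleotide transporter (−1.83, SE 0.373).

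The behavioural groups could be compared over mice, but with few astrocytes. Of the astrocytes, 335 (3.83%) carried a hashtag listed for a mouse at the threshold used (at least 10 UMIs and at least 3 times the next), and 159 of them belonged to 1 mouse, FC 1. Their median top and next hashtags were 4 and 2 UMIs, against 18 and 3 in pericytes, of which 1024 (45.3%) were assigned. Assigned and unassigned astrocytes held 741 and 712 CPM of *Adk*, 114 and 128 of *Entpd2*, and 31.7 and 30.8 of *P2ry14* (23.4 without FC 1). Mice with at least 5 cells numbered 11 for astrocytes (2 NoFC, 2 FC, 4 NoFR and 3 FR) and all 16 for pericytes. Sums per mouse were fitted with library as a covariate.

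In astrocytes, *Entpd2* and *Adk* were the members that passed the filter, and neither was called in any comparison. With a looser hashtag rule (at least 5 UMIs and at least 2 times the next), *P2ry14*, *P2rx7*, *Adora1* and *Adora2b* also passed. None of these was called there. *Entpd2* stood at 128 ± 77.7 CPM in the NoFC mice (SD, n = 2), at 137 ± 10.7 in the FC mice (n = 2), at 186 ± 58.6 in the NoFR mice (n = 4) and at 135 ± 31.2 in the FR mice (n = 3). *Adk* was 685 ± 323, 881 ± 19.7, 885 ± 133 and 882 ± 513 CPM in the same order. With TMM scaling, FC overlapped NoFC and FR overlapped NoFR for both genes (with plain totals, *Adk* did not overlap between the 2 FC and 2 NoFC mice). In this fit the smallest unadjusted p of *Entpd2* or *Adk* was 0.0633 from edgeR's test, for *Adk* between FC and NoFC. That p moved between alternatives: it was 0.00318 without FR 4 (adjusted p = 0.631) and 0.53 with the looser hashtag rule, both from edgeR's test. In the test of any difference among the 4 groups, 0.0295% of 3388 genes were called, and 2.77% had an unadjusted p under 0.05. The gene called was *Myoc*, named here after its values were seen. Between FC and NoFC the shares were 0.0295% and 2.8%, and between FR and NoFR 0% (0 genes, also with DESeq2) and 3.45%. Exact permutation tests of 6 members in 2 pairs of groups gave p of at least 0.114, where 2 against 2 mice cannot go below 0.333 and 3 against 4 not below 0.0571.

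In pericytes, *P2ry14*, *Adora2a* and *Adk* were tested and none was called. *P2ry14* came nearest, and stood lowest in NoFR mice. Its level, scaled by TMM, was 1208, 1107, 1140 and 1290 CPM in NoFC mice, 1235, 1003, 1158 and 1047 in FC mice, 868.5, 967.2, 932.2 and 790.1 in NoFR mice, and 1071, 1189, 1051 and 1046 in FR mice. The means were 1186 ± 80.9, 1111 ± 105, 890 ± 77.9 and 1089 ± 67.4 CPM (SD, n = 4 mice each). All 4 NoFR mice lay below all 12 others, a pattern held by 0.352% of the 6539 genes tested, and all 4 FR mice lay above all 4 NoFR mice, as for 1.99% of genes. NoFR mice lay below all others for 23 genes and above all others for 17. These patterns are described from the same values, so their shares are not a test of them. The test of any difference among the 4 groups gave an edgeR adjusted p of 0.14 over all genes (unadjusted p = 0.00172), so that the difference did not hold after correction. The log2 fold change of FR over NoFR was 0.30 (SE 0.107, unadjusted p = 0.00684, adjusted p = 0.605), and that of FC over NoFC −0.09 (SE 0.10, adjusted p = 0.999). An exact 2-sided permutation test over the mice gave p = 0.0286 for FR against NoFR, the smallest that 4 against 4 mice allow, and p = 0.314 for FC against NoFC, among 8 such tests.

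Within library 1 *P2ry14* was between 868.5 and 967.2 CPM in NoFR mice and between 1003 and 1235 CPM in the 6 others. Within library 3 it was between 790.1 and 932.2 CPM in NoFR mice, 1046 CPM in the FR mouse and 1290 CPM in the NoFC mouse. Library 2 held no NoFR mouse. NoFR mice were therefore lowest in both libraries that held them. This follows from NoFR mice lying below all other mice, so it is not a separate check of the difference. Under the 24 alternatives the unadjusted p of any difference was under 0.05 each time (2.21e-04 to 0.0382), and the adjusted p ran from 0.0331, with a looser hashtag rule, to 0.66. That looser rule was the only alternative with an adjusted p under 0.05. The alternative of at least 10 cells per mouse left the pericyte sums unchanged, since every mouse held at least 36 pericytes. It is therefore not a separate check.

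Measures that could move with this difference were read in the same mice. The pericyte markers summed to between 12647 and 13177 CPM in NoFR mice and between 11807 and 13945 in the other groups. The astrocyte markers summed to between 778 and 879.1 CPM in NoFR mice and between 637.9 and 846.7 in the others, with the highest mean in NoFR (810.4 CPM, against 740.1 to 753.8 in the others). This sum was mostly *Atp1b2* (676 CPM over all pericytes, with a UMI in 91.9% of them). It is therefore not a measure of astrocyte RNA alone. Over all pericytes, *P2ry14* was lower in cells with more UMIs of *Slc1a2* and *Slc1a3* (1093 CPM with 0 and 917 CPM with 3 to 5). The part of this in the NoFR level was not tested. Smooth muscle markers ran from 147.3 to 698.3 CPM in NoFR mice and from 105.3 to 879.1 in the others. Endothelial markers ran from 63.95 to 156.6 CPM in NoFR mice (mean 117.2) and from 98.24 to 366.8 in the others, with means of 139.3 in NoFC, 145.7 in FC and 217.3 in FR. Fibroblast markers ran from 205 to 298.4 CPM in NoFR mice and from 186.2 to 267 in the others. Over all pericytes the endothelial sum was mostly *Flt1* and the fibroblast sum mostly *Col1a2*. Median depth was between 4566 and 5178 UMIs per cell in NoFR mice and between 4797 and 5549 in the others. These ranges overlap between NoFR and the other groups, and their part in the result was not tested. NoFR was also the only group without a chamber session on the day of collection, and the part of this was not tested.

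**Figure D4:**
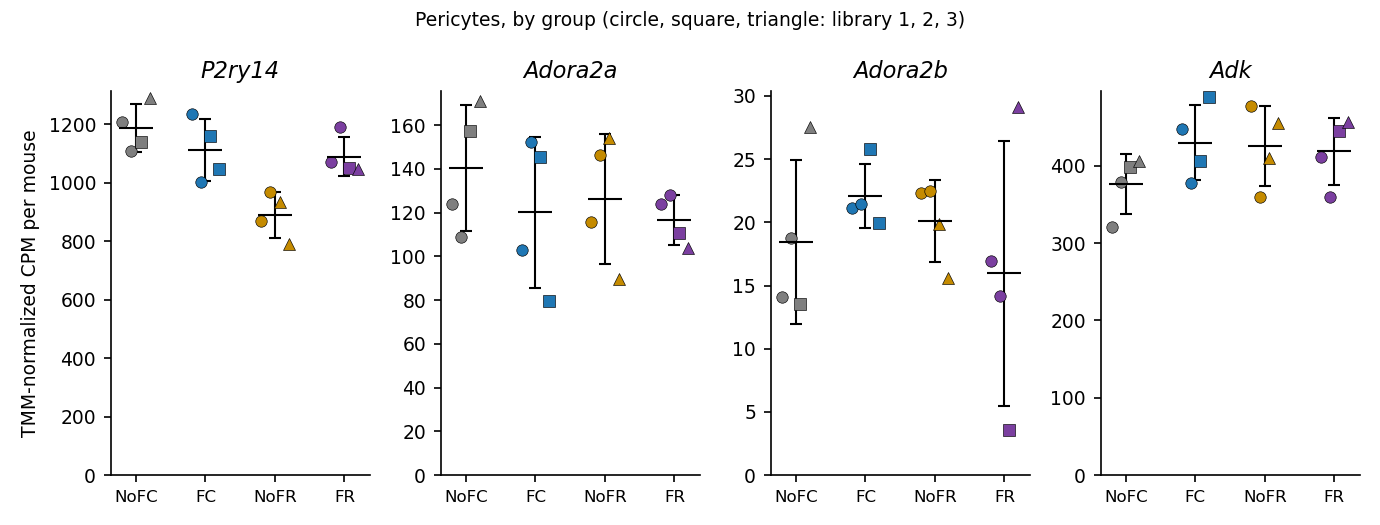
Level of *P2ry14*, *Adora2a*, *Adora2b* and *Adk* in the pericytes of each mouse by behavioural group, as TMM-scaled CPM, with a point for each mouse, a black line at the mean and a bar of 1 SD (n = 4 mice per group). The 4 NoFR mice sat between 790.1 and 967.2 CPM of *P2ry14*, below all 12 other mice, whereas the groups overlapped for the other genes.

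*Adora2a* in pericytes stood at 140 ± 28.9 CPM in the NoFC mice, at 120 ± 34.7 in the FC mice, at 126 ± 29.6 in the NoFR mice and at 117 ± 11.3 in the FR mice (SD, n = 4 each). *Adk* was 376 ± 38.6, 430 ± 48.6, 426 ± 51.9 and 418 ± 43.5 CPM, and *Adora2b*, under the filter, 18.5 ± 6.47, 22.1 ± 2.55, 20.1 ± 3.23 and 16 ± 10.5 CPM in the same order. All pairs of groups overlapped for these genes, and the exact permutation p values were between 0.2 and 0.857. Over all genes in pericytes, 0.642% were called for any difference among the groups and 7.39% had an unadjusted p under 0.05. Between FC and NoFC these shares were 0% (0 genes, also with DESeq2) and 4.57%, and between FR and NoFR 0.0918% and 6.27%. Of the list of 52, 4 genes were tested in astrocytes and 9 in pericytes between groups, and edgeR called 0 in either class. At an unadjusted p under 0.05 there were 0 in astrocytes and, in pericytes, 3 for any difference, 1 between FC and NoFC and 1 between FR and NoFR.

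Whether the group differences differed between the classes was tested in the 11 mice with at least 5 cells of both. Of 7440 genes, 0.0538% were called by edgeR's interaction test. Of the 9 genes, 7 were tested and 0 called, with a smallest unadjusted p of 0.214, for *P2ry14*.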

How the data were processed

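The authors deposited UMI counts per gene and barcode (10x 3′ chemistry), hashtag counts and a table of hashtags per mouse. Per the labels, reads were aligned to mm10, and the processing notes name Cell Ranger 3.0 where the matrix headers name 7.0.0. The sources used here state neither strand nor intron counting. No doublet caller was run, and barcodes that met neither class rule were left out. Raw counts were summed per class and library (library as a block, since both classes come from the same library; the 4 rule genes left out of the counts of calls) or per class and mouse (at least 5 cells; library as a covariate). Sums were tested with edgeR 4.0.16 in R 4.3.3 (TMM, filterByExpr, quasi-likelihood test, Benjamini-Hochberg adjustment over all genes tested, threshold 0.05). The SE of an edgeR fit is the absolute log2 fold change divided by the square root of the F statistic. For sums per library it reflects libraries of pooled mice, not single mice. Permutation tests used log2(CPM + 1). Thinned shares are expected shares after drawing 2000 UMIs per cell, with shallower cells left out. Intervals, and the limit of 3 counts for a zero, cover counting error only. Scripts were tested on simulated data.

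The genes and lists were chosen with earlier results of these data known. Log2 fold changes between groups are printed for members with an unadjusted p under 0.05, and from the list of 52 for up to 3 genes per direction and role. Genes of like pattern are not given, because the 6 sums of only 2 classes fall into 2 clusters. Alternatives were DESeq2 1.42.0, other scaling, no filter, a mitochondrial filter (at least 100 genes, under 6%), other class and hashtag thresholds, no block, sums per mouse, and leaving out each library or mouse. Cells free of the other class's rule genes, sums per mouse without FC 1, and plain totals in the permutation tests were chosen after seeing the data.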

Additional observations from a re-analysis of the deposited data

How the results depend on the processing

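Each of the 7 tested members kept its direction and call between the classes under every alternative in which it was tested. With sums per mouse, *P2rx7*, *Adora1* and *Adora2b* did not pass the filter, so their difference was not tested over mice. The log2 fold changes ran from −5.08 to −4.80 for *P2ry14*, −8.18 to −5.65 for *Adora2a*, 4.72 to 5.63 for *P2rx7*, 4.69 to 5.28 for *Adora1*, 1.48 to 1.79 for *Adora2b*, 4.26 to 4.69 for *Entpd2* and 0.82 to 1.16 for *Adk*. The −5.65 of *Adora2a* is from sums per mouse, where the astrocytes of a group held at most 1 UMI of it. Without the library block, the paired part of that fit, 12297 genes were called in place of 12232, and leaving out a library gave 11391 to 11746. Sums per mouse called 3169 genes, or 2730 without FC 1, of fewer genes tested, with 5 and 5 of the list of 52 in place of 25. With plain totals 25 of the list were called, 16 higher in astrocytes and 9 in pericytes. *Ampd3* lost its call (0.19 to −0.03) and *P2rx4* became higher in pericytes (−0.36, adjusted p = 0.00413 from edgeR), 2 genes named after their values were seen. Thinned to 2000 or 5000 UMIs, or at 2 UMIs, 6 of 9 members had the higher share in astrocytes in every library, and unthinned 7.

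In the group comparisons no member passed the threshold except *P2ry14* in pericytes under the looser hashtag rule, as given above, and its log2 fold change of FR over NoFR stayed between 0.25 and 0.35. Counts over all genes were small and moved. For any difference in astrocytes (1 gene), DESeq2 gave 3, no library term 2, no filter 6, the mitochondrial filter 0, the looser hashtag rule 0, listed hashtags only 2, at least 10 cells per mouse 2, and leaving out a mouse 1 to 12 (12 without FR 4). For FC against NoFC in astrocytes (1 gene) these were 4 with no filter, 0 with the mitochondrial filter, 0 with looser hashtags, 2 with listed hashtags, 2 with at least 10 cells, and 1 to 2 leaving out a mouse. For FR against NoFR in astrocytes (0 genes) they were 1 with no filter and 0 to 3 (3 without FR 4). In pericytes, any difference (42 genes) gave 24 with DESeq2, 92 with no filter and 27 to 56 leaving out a mouse (27 without NoFC 4). FC against NoFC (0 genes) gave 8 with no filter and 0 to 1 (1 without NoFC 1). FR against NoFR (6 genes) gave 10 with no library term, 17 with no filter, 10 with looser hashtags and 3 to 13 (13 without FR 4, 3 without NoFR 1). The interaction gave 3 with plain totals and 3 with at least 10 cells per mouse. The cause of these changes was not tested. Depth limits *P2ry1* and *Nt5e*, and the low number of hashtagged astrocytes limits all group comparisons in that class.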

Other observations

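Detection of pairs of members in the same cell was read in astrocytes of like depth, for 10 pairs of *P2ry14*, *P2rx7*, *Adora1*, *Adora2b* and *Entpd2*. In 4 of the 10 pairs the share with a UMI of the second gene was higher in cells with the first than in cells without it in every library, and in the other 6 the direction differed between libraries. The largest gaps are given, with 3 pairs of little or no gap. In the 3117 astrocytes with between 8000 and 12000 UMIs, an *Entpd2* UMI was found in 75.1% of the cells with an *Adora2b* UMI and in 65.1% of those without. The shares were 74.9% and 65.4% in library 1, 76.5% and 67.7% in library 2, and 73.9% and 62.3% in library 3. An *Adora2b* UMI was found in 41.8% of the cells with a *P2ry14* UMI and 35.4% of those without, with 40.5% and 36.3%, 44.1% and 34.3%, and 41.5% and 35.2% in the libraries. An *Adora1* UMI was found in 21.2% of the cells with a *P2rx7* UMI and 21.5% of those without. A *P2rx7* UMI was found in 21.7% of the cells with a *P2ry14* UMI and 21.4% of those without, and an *Adora2b* UMI in 35.7% of the cells with a *P2rx7* UMI and 37.3% of those without. These are shares of single cells in sparse counts, given without a test, so that no difference between pairs is shown, and depth still varied within the band.

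In the 2529 barcodes of neither class, *P2ry14* was read at 211 CPM with a UMI in 10.4% of barcodes and *Adk* at 521 CPM with a UMI in 35.9%. *Entpd2* was read at 71.5 CPM, *Adora2b* at 26.2, *Adora2a* at 24.6, *P2rx7* at 23.9, *Adora1* at 19.7, *P2ry1* at 2.32 and *Nt5e* at 0.232 CPM. Genes higher in either class were thus read in these barcodes, of which 295 held at least 2000 UMIs.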
